A study of Mus musculus with 2 samples.

Results

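Described here are 6 transcription factors of retinal ganglion cells: the POU factors Pou4f1, Pou4f2 and Pou4f3, the LIM homeobox factor Isl1, and the early B cell factors Ebf1 and Ebf3. They were taken by gene symbol, and all 6 were among the 31053 genes of the deposited matrices. The cells came from single-cell RNA-seq of mouse eye cups at e15.5, with 1 library per genotype and 3 eye cups pooled in each, after cornea, lens and optic nerve had been taken off. The control genotype was Myrf fl/fl, homozygous for a Myrf allele that Cre can delete, without Cre. The mutant genotype, Rx>cre Myrf fl/fl, adds a Cre driven by Rx regulatory sequence, which is active in the early eye field that gives rise to retina and retinal pigment epithelium (RPE). The periocular mesenchyme, blood and vessels of the eye cup do not descend from that field. With 1 library per genotype no test was possible. Each interval in the text is a 95% interval for counting error only and leaves out the spread between embryos and between preparations.

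Ganglion cells are the earliest retinal neurons and the ones whose axons reach the brain. In the accepted scheme the proneural factor ATOH7 makes progenitors competent, POU4F2 and ISL1 then start the ganglion cell programme, and POU4F1, POU4F3 and the EBF factors act in later differentiation and in subtypes. ISL1 also works in other neurons, among them cholinergic amacrine cells and bipolar cells, and EBF1 is known from B lymphocytes and adipocyte precursors.

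The promoters of Pou4f2 and Isl1, the early pair, and of Pou4f1, which had its highest level later, are shown as the 250 bases before the gene start, 5′ to 3′ on the gene's strand (RefSeq table, GRCm38.p6). Capitals mark the E-box CANNTG, the letters bound by proneural bHLH factors such as ATOH7, which read the same on both strands.
Pou4f2, chr8:78436648-78436897, minus strand: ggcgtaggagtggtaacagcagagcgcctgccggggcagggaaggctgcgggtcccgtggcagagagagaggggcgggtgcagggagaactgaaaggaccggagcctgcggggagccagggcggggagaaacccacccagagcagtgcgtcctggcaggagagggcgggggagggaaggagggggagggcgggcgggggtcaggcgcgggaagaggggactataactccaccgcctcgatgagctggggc
Isl1, chr13:116309689-116309938, minus strand: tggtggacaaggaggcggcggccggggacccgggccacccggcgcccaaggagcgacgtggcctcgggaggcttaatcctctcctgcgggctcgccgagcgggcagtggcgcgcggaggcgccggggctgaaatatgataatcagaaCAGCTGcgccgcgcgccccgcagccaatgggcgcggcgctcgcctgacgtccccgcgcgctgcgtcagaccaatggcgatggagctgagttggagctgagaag
Pou4f1, chr14:104468000-104468249, minus strand: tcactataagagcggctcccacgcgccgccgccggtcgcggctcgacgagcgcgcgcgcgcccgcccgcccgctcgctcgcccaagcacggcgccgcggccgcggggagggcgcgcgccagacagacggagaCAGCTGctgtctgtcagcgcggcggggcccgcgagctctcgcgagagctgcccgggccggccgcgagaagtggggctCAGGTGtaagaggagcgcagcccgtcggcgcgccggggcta

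Pou4f1 had 2 E-boxes in its window, CAGCTG at -118 and CAGGTG at -41 from the start, Isl1 had 1, CAGCTG at -103, and Pou4f2 had none. An E-box was found in 66.2% of the 32851 windows of this length in the table, so a match is common. Pou4f3 was left out of this step, so windows were read for 5 of the 6 genes. The POU4F core ATTAAT was in none of them, against 4.39% of all windows, and the same held for the EBF palindrome, against 0.779%.

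In the GRCm38 annotation the 6 genes lie on 6 chromosomes. Pou4f1 (ENSMUSG00000048349) spans 104461676 to 104467999 on chromosome 14, Isl1 (ENSMUSG00000042258) spans 116298281 to 116309689 on chromosome 13, and Ebf3 (ENSMUSG00000010476) spans 137193673 to 137314445 on chromosome 7, all on the minus strand. Pou4f2 (ENSMUSG00000031688) spans 78433010 to 78436645 on the minus strand of chromosome 8. Ebf1 (ENSMUSG00000057098), at 44617317 to 45008091 on the plus strand of chromosome 11, and Pou4f3 (ENSMUSG00000024497) complete the set. The libraries count transcript 3′ ends, so levels are compared between cells and not between genes.

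The libraries held 13017 control and 13880 mutant barcodes with 132436812 and 135678970 UMIs in all, a UMI being 1 counted transcript molecule. Filters left 11518 and 12576 cells, and 59 of these barcodes occurred in both libraries. Myrf, the targeted gene, had 76.8 and 29.6 CPM (a gene's UMIs in each 1000000 UMIs from a class) in control and mutant RPE-like cells. Its 3′ reads need not cover the deleted part. Y-linked transcripts were found in 0 of 407 control and 316 of 514 mutant ganglion cell-like cells (61.5%), so the libraries differed in the sex of their embryos.

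The path into ganglion cells was covered by 3 classes, built without using the 6 genes. The Gal/Insm2 cluster (211 control and 218 mutant cells) had Atoh7 at 7712 and 6715 CPM in control and mutant. The newborn ganglion cell-like class held 220 control and 282 mutant cells and the maturing ganglion cell-like class 187 control and 232 mutant cells. They were told apart by 8 newborn markers such as Dlx1, Hes6 and Btg2 and 7 maturing markers such as Nefl, Sncg and Thy1. The 11 ganglion cell markers summed to 2058 and 2163 CPM in the Gal/Insm2 cluster, 14913 and 14936 in newborn and 23517 and 22493 in maturing cells. The newborn markers summed to 4905 and 4959 CPM in neurogenic progenitor-like cells, 3952 and 3984 in the Gal/Insm2 cluster, 953 and 929 in newborn and 167 and 204 in maturing cells, so the Gal/Insm2 cluster had more of them than the newborn class. Newborn is thus a name relative to the maturing class alone, and newborn cells already had 5349.9 and 5298 CPM of the maturing markers, against 12283 and 11816 in maturing cells. Of the markers of peripheral neurons, Phox2a and Tlx3 were at 0 in newborn and maturing cells. Prph had 125 control and 14 mutant UMIs in maturing cells.

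The genes differed in how far they were restricted to ganglion cells. Newborn and maturing cells were 3.53% of control and 4.09% of mutant cells. They held 95.1% and 97.3% of all Pou4f3 UMIs of the 2 libraries, 91.0% and 91.2% of Pou4f1 and 78.0% and 80.2% of Isl1 UMIs. For Pou4f2 they held 60.1% and 63.8%, and the Gal/Insm2 cluster held 29.5% and 24.9%. Ebf3 had 51.8% and 58.5% there and Ebf1 35.2% and 47.3%, with 36.3% and 28.9% of Ebf1 in periocular mesenchyme-like cells. Another 10.8% and 6.38% of Ebf1 lay in the unnamed Col1a1/Col1a2 cluster and 6.85% and 5.69% in the unnamed Col1a2/Col3a1 cluster. Such shares mix the number of cells with the RNA in each, so levels per class follow.

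**Figure D1:**
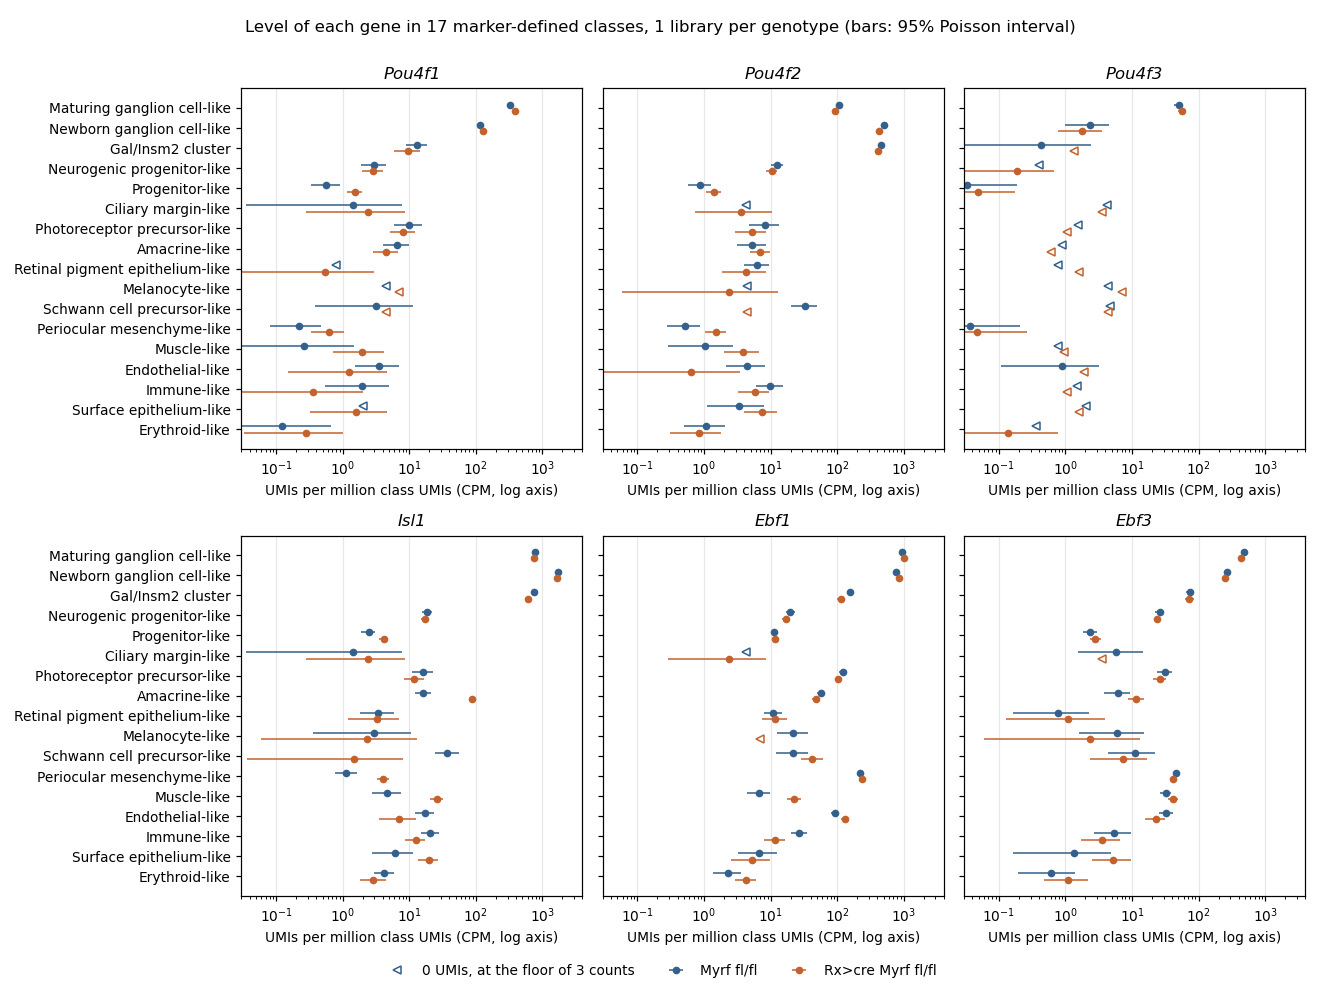
Level of the 6 genes in 17 named classes, in CPM on a log axis, with 1 point per library and 95% Poisson intervals. Pou4f1 and Pou4f3 were highest in maturing cells, Isl1 and Pou4f2 in newborn cells, and Ebf1 was also high in periocular mesenchyme-like cells, at 219 and 239 CPM.

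Isl1 was high before the newborn class and highest within it. In control cells it stood at 18.7 CPM in neurogenic progenitor-like cells, 751 (716 to 788) in the Gal/Insm2 cluster, 1742 (1699 to 1787) in newborn and 769 (739 to 799) in maturing cells. In mutant cells the same 4 classes had 17.4, 619 (586 to 652), 1679 (1641 to 1717) and 755 (729.6 to 782) CPM. The Gal/Insm2 and maturing levels overlapped within counting error in control and did not in mutant. From newborn to maturing cells the level was lower by 2.27-fold (2.16 to 2.37) in control and 2.22-fold (2.13 to 2.32) in mutant. Most cells kept it. After each cell was thinned to 5000 UMIs, 211 of 212 control and 278 of 278 mutant newborn cells had Isl1, and so did 86.4% (80.5 to 91.1) and 90.8% (86.3 to 94.2) of maturing cells. In erythroid-like cells, which should lack these genes, the shares were 0.887% and 0.489%. For the other 5 genes they were at most 0.978%. Median depths before thinning were 17207 and 16934 UMIs in erythroid-like, 15336 and 15974 in newborn, and 19167 and 18926 in maturing cells.

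Pou4f2 was present as early as Isl1 and was lower again sooner. Neurogenic progenitor-like cells had 12.5 and 10.5 CPM in control and mutant. The Gal/Insm2 cluster had 449 (422 to 478) and 414 (387 to 442) CPM, 35.9-fold and 39.5-fold above those progenitors. Newborn cells had 499.7 (476 to 524) and 428 (409 to 447) CPM, a further step of only 1.11-fold (1.03 to 1.202) and 1.03-fold (0.954 to 1.12). Maturing cells had 108 (97.3 to 119.9) and 93.1 (84.2 to 103) CPM, lower than newborn cells by 4.62-fold and 4.59-fold. In thinned cells Pou4f2 was found in 67.7% and 65.5% of the Gal/Insm2 cluster, 81.1% and 74.8% of newborn and 44.1% and 35.96% of maturing cells.

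Pou4f1, which also acts in sensory neurons, came later. Control cells had 13.1 CPM in the Gal/Insm2 cluster, 117 (106 to 129) in newborn and 326 (307 to 346) in maturing cells. Mutant cells had 9.59, 128 (118 to 139) and 387 (369 to 406) CPM. The maturing over newborn ratio was 2.78 (2.48 to 3.13) in control and 3.02 (2.75 to 3.33) in mutant. The 14 other named classes had at most 9.92 CPM. In thinned cells Pou4f1 was found in 38.7% and 38.1% of newborn cells and in 56.5% (48.9 to 63.9) and 69.7% (63.3 to 75.6) of maturing cells.

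Pou4f3, best known from hair cells of the inner ear, was found mainly in maturing cells. It had 168 control and 242 mutant UMIs there, or 50.3 (43.0 to 58.6) and 56.3 (49.4 to 63.9) CPM. Newborn cells had 8 UMIs in each library, and the Gal/Insm2 cluster had 1 in control and 0 in mutant. The maturing over newborn ratio was 21.8 (10.8 to 51.3) in control and 31.7 (15.8 to 74.2) in mutant, wide because of the 8 newborn UMIs. After thinning, 14.7% (9.83 to 20.8) and 15.8% (11.3 to 21.2) of maturing cells had a UMI, and the 5 cells richest in Pou4f3 held 26.8% and 26.4% of its UMIs in the class.

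The EBF genes, helix-loop-helix factors of neuronal differentiation, were highest in maturing cells. Ebf1 had 157 (141 to 174) and 114 (101 to 129) CPM in the Gal/Insm2 cluster, 771 (742 to 801) and 853 (826 to 880.4) in newborn and 931 (899 to 965) and 1023 (993 to 1054) in maturing cells of control and mutant. From the Gal/Insm2 cluster on, its larger step, 4.91-fold (4.40 to 5.50) in control and 7.47-fold (6.57 to 8.52) in mutant, was the one to newborn cells. From newborn to maturing cells its log2 ratio was 0.27 (0.20 to 0.35) and 0.26 (0.20 to 0.33), and the value pooled over both libraries, 0.27, was 0.058 with doublets kept and 2.59 at Leiden resolution 0.6. Ebf3 had 74.8 and 73.1 CPM in the Gal/Insm2 cluster, 265 (248 to 283) and 248 (234 to 263) in newborn and 484 (461 to 508) and 435 (416 to 455) in maturing cells. Its maturing over newborn ratio was 1.83 (1.68 to 1.98) and 1.75 (1.63 to 1.89). In thinned maturing cells Ebf1 was found in 95.5% and 99.6% and Ebf3 in 83.6% and 77.2%.

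These steps can be read against all genes with at least 20 UMIs. From neurogenic progenitor-like cells to the Gal/Insm2 cluster, 5 of 5 measured members were more than 2-fold higher, beside 5.86% of genes in control and 6.45% in mutant (12.9% and 12.4% were lower). The Gal/Insm2 cluster was kept apart from that progenitor class after the data were seen. Pou4f2 and Isl1 were among the leading genes of the cluster, so the count is a description only. From that cluster to newborn cells, 4 of 5 were more than 2-fold higher (all but Pou4f2), beside 10.6% and 10.4% of genes, and none was lower, beside 8.22% and 8.48%. From newborn to maturing cells Pou4f1 and Pou4f3 were more than 2-fold higher, beside 9.68% and 9.91% of genes. Pou4f3, with 8 newborn UMIs in each library, was measured there only through the maturing class, so the limit of 20 UMIs favoured its call and only Pou4f1 can be set against those shares. Pou4f2 and Isl1 were more than 2-fold lower, beside 4% and 3.35%. At Leiden resolution 0.6 the newborn name fell to a low-UMI cluster and all 407 and 514 newborn and maturing cells were 1 class, and against that cluster the pooled log2 ratios of Pou4f2 and Isl1 were 0.78 and 1.93 rather than -2.20 and -1.16. With a mitochondrial limit of 5%, those of Pou4f1 and Pou4f3 were 0.88 and 3.09 rather than 1.55 and 4.74. The members' median log2 ratio at that last step, 0.57 in control and 0.54 in mutant, averages over opposite directions, while all genes had medians of 0.055 and 0.067.

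The order was also read cell by cell, in an analysis added after the data were seen. Cells of the 3 classes were thinned to 5000 UMIs and sorted into 5 bins by their UMIs of the 7 maturing markers. Pou4f2 had 385 and 369 CPM in control and mutant cells with 0 marker UMIs, 663 and 539.8 at 1 to 5, 654 and 596 at 6 to 20, 321 and 242 at 21 to 50 and 135 and 96.4 above 50. Isl1 had its highest level at 6 to 20 marker UMIs, with 1733 (1591 to 1885) CPM in control and 1506 (1394 to 1624) in mutant. That mutant level overlapped within counting error the one at 21 to 50, 1452 (1375 to 1533). Pou4f1 was higher in each successive bin, from 14.1 and 8.92 to 289 and 345 CPM. In the 21 to 50 bin it had 164 (135 to 197) CPM in control and 260 (228 to 296) in mutant, so the libraries did not overlap there. Ebf1 had 689 and 762 CPM by the 6 to 20 bin and 928 and 1060.1 in the last, while Ebf3 went from 209.5 and 202 to 509.7 and 432. Pou4f3 was at 0 in both libraries up to 5 marker UMIs, with upper bounds of 9.71 and 7.93 CPM at 1 to 5, and reached 49.0 and 57.0 CPM in the last bin.

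**Figure D2:**
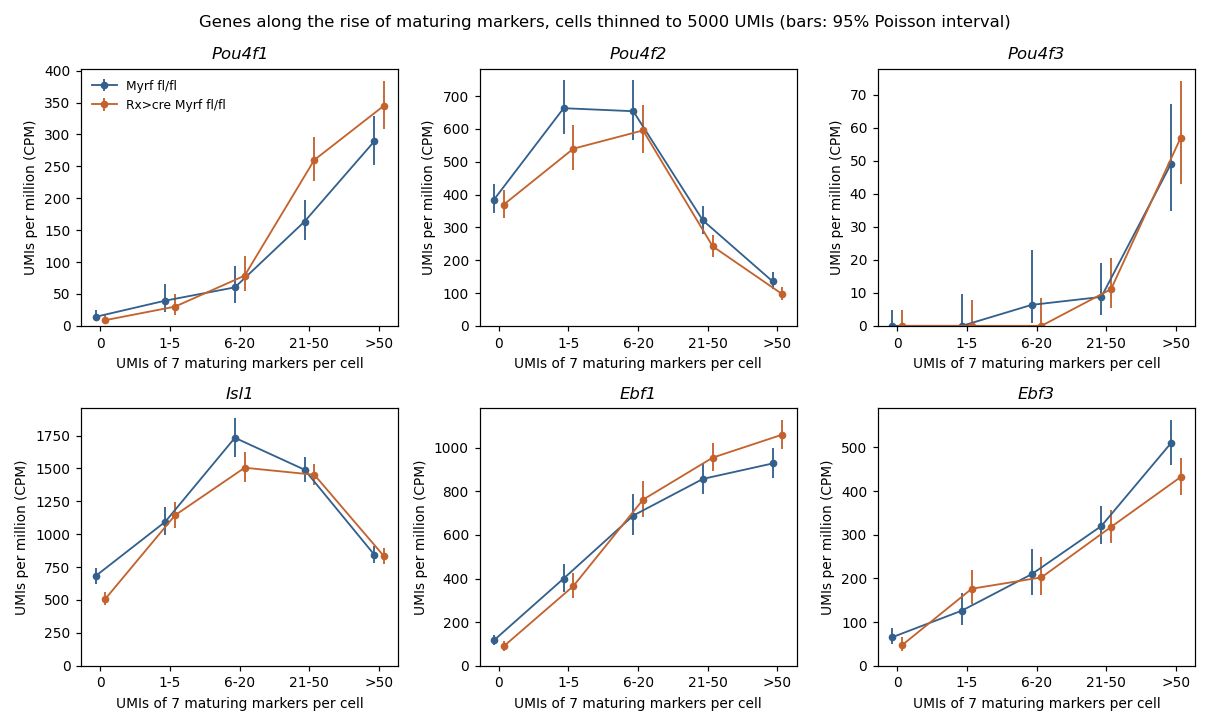
Level of each gene (CPM) against the UMIs of 7 maturing markers in the cell, in 5 bins of 63 to 193 cells per library, with 95% Poisson intervals. Pou4f2 and Isl1 had their highest levels in the middle bins, while Pou4f1, Ebf1 and Pou4f3 had theirs in the last.

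Single cells showed which factors occurred together. In the Gal/Insm2 cluster, 120 of 134 control and 121 of 135 mutant cells with Pou4f2 also had Isl1, or 89.6% and 89.6%. Of the cells without Pou4f2, 37.5% and 28.2% had Isl1. The pair thus lay largely in the same cells. No member was found in 15.7% and 19.9% of cells in that cluster. In maturing cells 37.9% and 40.8% had 4 of the 6 genes, 22.03% and 25% had 5, and 2.26% and 1.32% had all 6. These shares depended on depth. All 6 were found in 12.3% and 14.7% of maturing cells without thinning, and in 0.538% and 0% after thinning to 2000 UMIs.

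Within the maturing class, cells with and without Pou4f1 differed in other factors. Pou4f3 was found in 22% (14.3 to 31.4) of the 100 control cells with Pou4f1 and in 5.19% (1.43 to 12.8) of the 77 without it. In the mutant the shares were 18.9% (13.1 to 25.8) of 159 and 8.70% (3.26 to 18.0) of 69 cells, whose intervals overlapped. Isl2, a relative of Isl1 known from ganglion cells that project to the opposite side of the brain, was found in 22% and 5.19% of control and 28.3% and 10.1% of mutant cells. Eomes, a factor of intrinsically photosensitive ganglion cells, lay on the other side. It was found in 6% (2.23 to 12.6) of control cells with Pou4f1 and 20.8% (12.4 to 31.5) of those without, and in 1.26% (0.153 to 4.47) and 29.0% (18.7 to 41.2) in the mutant. None of the 26 control and 36 mutant cells with Pou4f3 had Eomes, with exact upper bounds of 13.2% and 9.74%. Eomes was found in 12.4% and 9.65% of all maturing cells, within those bounds. That set includes the cells with Pou4f3, so the share among the other maturing cells was higher. The cells with Pou4f3 were few, and whether these genes exclude each other was not tested. Pou4f2 was found in 37% of control cells with Pou4f1 and 53.2% of those without, and in 35.8% and 36.2% in the mutant. Isl1 was found in 76.9% and 72.2% of cells with Pou4f3 and in 88.1% and 94.3% of the other maturing cells.

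**Figure D3:**
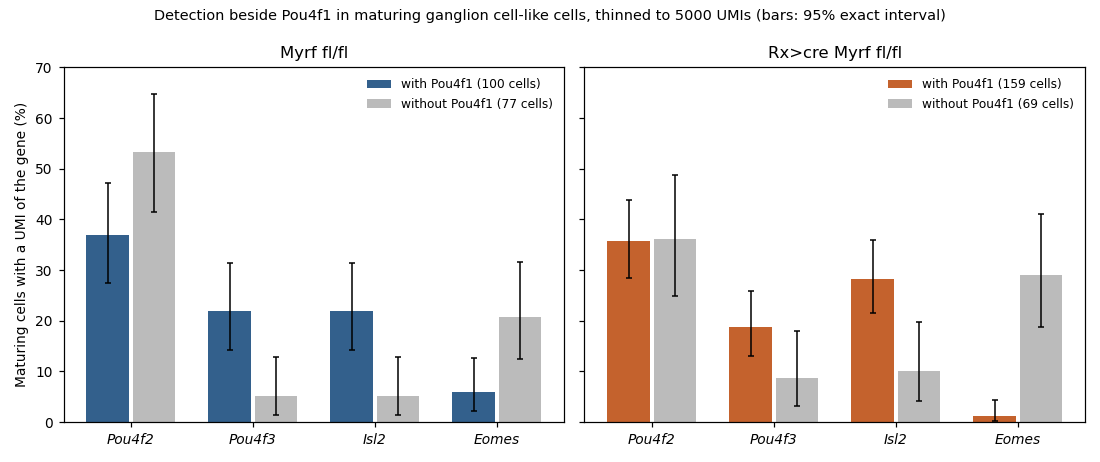
Share of maturing ganglion cell-like cells with a UMI of Pou4f2, Pou4f3, Isl2 or Eomes (percent), among cells with and without Pou4f1, each cell thinned to 5000 UMIs, with 95% Clopper-Pearson intervals. The share with Eomes was larger among cells without Pou4f1 in both libraries, while the shares with Pou4f3 and Isl2 were larger among cells with it, and the mutant intervals of Pou4f3 overlapped.

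The wider network was read from 3 lists. In the ganglion cell programme list, 9 of 11 measured genes were more than 2-fold higher in maturing than in newborn cells in each library, beside 9.68% and 9.91% of all genes, and none was lower, beside 4% and 3.35%. The same shares of all genes stand beside the calls of the other lists at this step. The programme genes that were higher were Shh, Gfi1, Eomes, Irx6, Isl2, Ablim1, Rit2, Nell2 and L1cam. Of these, Shh, Gfi1, Eomes, Rit2 and Isl2, and Irx6 in control, had under 20 UMIs in newborn cells and were measured only through the maturing class where they were high. The limit of 20 UMIs thus favoured a difference, and the count and the median of the list are a description that supports nothing. Ablim1, Nell2 and L1cam had at least 20 UMIs in both classes. Eomes had 0.289 and 0.222 CPM in newborn and 61.7 and 60.7 in maturing cells, and Nell2, a secreted neuronal glycoprotein, had 34.9 and 47.1 and then 215 and 199. Among 8 upstream and early factors, Atoh7 had 1913 and 1739 CPM in newborn and 53.9 and 78.6 in maturing cells. Sox4, a SoxC factor of young neurons, was also more than 2-fold lower in both libraries, Neurod1 was so in control alone, and Onecut1, also under 20 UMIs in newborn cells, was higher, with 4.33 and 1.78 CPM before and 19.2 and 12.1 after. Among 8 measured relatives of the members, Isl2 was higher and Ebf2 and Pou3f1 were lower in both libraries, and Pou3f2 was lower in the mutant alone. Ebf2 had 16 and 11 UMIs in maturing cells and was measured only through the newborn class, so the limit favoured its call too. Pou3f1, a POU factor, had 648 and 659 CPM in newborn and 178 and 224 in maturing cells, the direction of Pou4f2 and Isl1. The median log2 ratio was 2.92 in control and 2.66 in mutant for the programme, -0.52 and -0.61 for the upstream list, and -0.35 and 0.035 for the relatives.

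Between the genotypes the members with at least 20 UMIs stayed within 1.5-fold in the Gal/Insm2 cluster and the ganglion cell classes, which leaves out Pou4f3 in that cluster and in newborn cells. Over newborn and maturing cells together, Pou4f1 had 219.6 CPM in control and 255 in mutant, a ratio of 1.16 (1.09 to 1.24). Ebf1 had 849.7 and 936 CPM, a ratio of 1.10 (1.07 to 1.14), and Pou4f3 had 25.9 and 28.4 CPM, a ratio of 1.10 (0.902 to 1.34). Pou4f1 and Ebf1 were higher in the mutant. The log2 ratio of Pou4f1, 0.21, was 0.082 with a mitochondrial limit of 5% and 0.41 without cells over 20000 UMIs. The interval of Pou4f3 included 1, and its log2 ratio was -0.054 rather than 0.14 without cells over 20000 UMIs. Pou4f2 had 308 and 264 CPM, a ratio of 0.859 (0.809 to 0.911). Ebf3 had 372 and 339.5 CPM, a ratio of 0.912 (0.865 to 0.962), and Isl1 had 1265 and 1228 CPM, a ratio of 0.971 (0.944 to 0.999). None of the 6 was past 1.5-fold, beside 7.41% of the 11924 genes measured (3.98% higher and 3.42% lower). Since few genes of any kind were past it, the count says little about the members.

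Within the separate classes the count of members past 1.5-fold was also 0. In the Gal/Insm2 cluster this was 0 of 5 measured members, beside 10.7% of genes (5.71% higher and 5% lower). In newborn cells it was 0 of 5, beside 8.62% (4.3% higher and 4.32% lower), and in maturing cells 0 of 6, beside 8.9% (4.89% higher and 4.01% lower). The log2 ratio of Pou4f1 was -0.45 (-1.33 to 0.40) in the Gal/Insm2 cluster, 0.13 (-0.056 to 0.32) in newborn and 0.25 (0.14 to 0.36) in maturing cells. That of Pou4f2 was -0.12 (-0.25 to 0.012), -0.22 (-0.32 to -0.13) and -0.22 (-0.43 to -0.0078). It was lower in the mutant in newborn and maturing cells, while its interval in the Gal/Insm2 cluster included 0. The sex of the embryos moved with the genotype. In cells with an Xist UMI and no Y-linked UMI, 96.8% of control and 28.8% of mutant newborn and maturing cells, the log2 ratio of Isl1 over both classes was 0.025 rather than -0.043, that of Ebf3 0.023 rather than -0.13, and that of Pou4f2 -0.072 rather than -0.22. Pou4f1 and Ebf1 stayed above 0 there, at 0.26 and 0.24. Litter, preparation and genotype cannot be told apart.

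**Figure D4:**
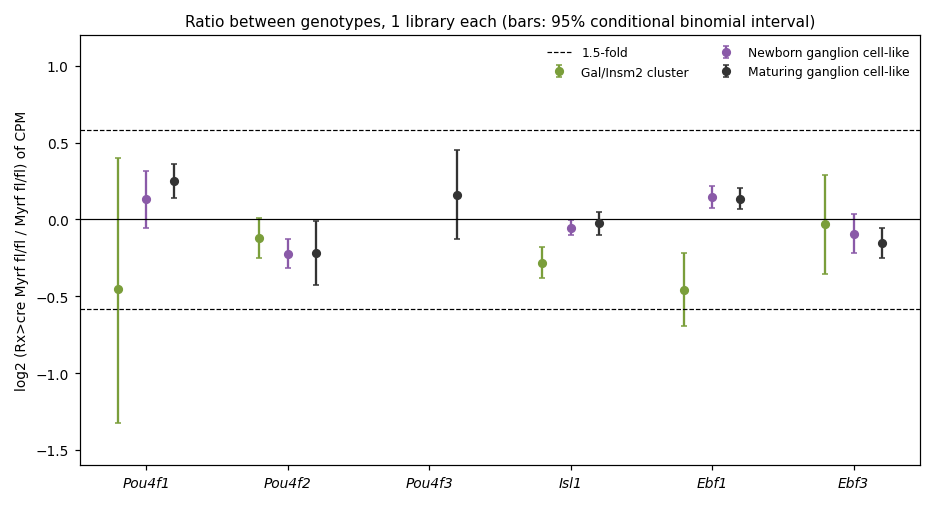
Mutant over control ratio of each gene on the log2 scale in the Gal/Insm2 cluster, newborn and maturing cells, with 95% conditional binomial intervals, lines at 1.5-fold, and Pou4f3 drawn for maturing cells alone. The ratios of all 6 genes in maturing cells lay within 1.5-fold, from -0.22 to 0.25.

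Some genes of the lists differed more between the genotypes than the members. In maturing cells Gfi1, a zinc finger factor, had 14.7 and 32.1 CPM in control and mutant, a log2 ratio of 1.13 (0.65 to 1.63). Isl2 had 37.2 and 64.7 CPM, a log2 ratio of 0.80 (0.49 to 1.12). The proneural factor Neurod1 had 23.1 and 46.5 CPM, a log2 ratio of 1.01 (0.63 to 1.41), while Onecut1 had 19.2 and 12.1, a log2 ratio of -0.66 (-1.22 to -0.11). Ebf2, an EBF relative, had 4.79 and 2.56 CPM in maturing cells, a log2 ratio of -0.91 (-2.16 to 0.29), and 20.5 and 13.2 in the Gal/Insm2 cluster, a log2 ratio of -0.63 (-1.35 to 0.065). In newborn cells Pou2f1, a widely expressed POU factor, had 32.3 and 20.9 CPM, a log2 ratio of -0.63 (-1.04 to -0.22), and Onecut1 had 4.33 and 1.78, a log2 ratio of -1.28 (-2.73 to 0.045). The intervals of Ebf2 and of Onecut1 in newborn cells included 0. In maturing cells the photoreceptor precursor markers summed to 63.5 and 92.4 CPM and the progenitor markers to 126 and 231, and their part in these differences was not tested. Over newborn and maturing cells together, 2 of 11 programme genes (Gfi1 and Isl2) were past 1.5-fold higher, beside 3.98% of all genes, and none was lower, beside 3.42%. Of the other lists, 1 of 8 upstream genes (Onecut1) was lower, and 1 of 9 relatives (Isl2, also a programme gene) was higher, single calls that say little beside those shares. The list medians were 0.0071, -0.062 and -0.098 on the log2 scale, against -0.017 for all genes.

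Outside ganglion cells the EBF genes had a further domain in mesenchyme. Periocular mesenchyme-like cells had 219 (214 to 225) and 239 (233 to 246) CPM of Ebf1 in control and mutant, and 45.4 and 41.8 of Ebf3. The clusters within that class differed widely. The cluster led by Col3a1 and Postn had 454 (440.3 to 468) and 501 (484 to 518) CPM of Ebf1, and the one led by Col3a1, Dlk1 and Osr2 had 242 (230.0 to 254) and 348 (331 to 366). The cluster led by Col1a2 and Matn4 had 17.3 and 15.8 and the one led by Spp1 and Dcn had 15.3 and 39.8. Ebf3 kept the order of the first 3 of these, with 105 and 94.1, 34.9 and 51.1 and 3.55 and 3.96 CPM. Endothelial-like cells had 94.3 and 132 CPM of Ebf1 and photoreceptor precursor-like cells 121 and 103. In erythroid-like cells the 6 genes had at most 4.29 CPM.

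Isl1 differed between the libraries in amacrine-like cells, named for Tfap2a, Tfap2b, Ptf1a and other interneuron genes. They had 16.2 (12.2 to 21.1) CPM in control and 86.9 (78.8 to 95.5) in mutant, a ratio of 5.35 (4.03 to 7.22). Isl1 was found after thinning in 4.16% (2.39 to 6.66) and 9.81% (7.44 to 12.6) of these cells, whose median depth was 7479 and 7437 UMIs. The cluster led by Onecut2, Nrxn3 and Nnat, whose marker score was 4.11 for amacrine and 4.04 for horizontal cells and thus hardly told them apart, had 21.5 (15.8 to 28.6) and 124 (112 to 136) CPM, and the one led by Ptf1a had 6.68 and 9.55.

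In the Onecut2-led cluster, 17 of 297 control and 60 of 456 mutant cells had Isl1, or 5.72% and 13.2%. Genes known from starburst (cholinergic) amacrine cells were then looked up in these cells, a choice made after the data were seen. Sox2 had 62.6 and 349.9 CPM in control and mutant cells with Isl1 and 23.5 and 20.5 in cells without it. Fezf1 was found in 7 of 60 mutant cells with Isl1 and in 0 of 17 control cells, where 3 counts would be 17.6% of the cells. Megf10 had 24.9 CPM in mutant cells with Isl1 and 7.57 in those without, and was at 0 in the control cells with Isl1. Slc18a3, the vesicular acetylcholine transporter of cholinergic cells, had 1 UMI in the mutant cells with Isl1 and 0 in the control cells with Isl1. Lhx1, a horizontal cell factor, had 55.6 and 21.03 CPM in cells with Isl1 and 105 and 95.1 in cells without. The ganglion cell factor Pou4f2 was found in 1 control and 5 mutant cells with Isl1. Further genes of ganglion cells were also higher beside Isl1. Nefl, a neurofilament gene, had 243 and 212 CPM in control and mutant cells with Isl1 and 84.1 and 92.2 in cells without it, and Ebf1 had 167 and 103 and 68.5 and 46.8. The part of ganglion cell RNA in the Isl1 difference was not tested.

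**Figure D5:**
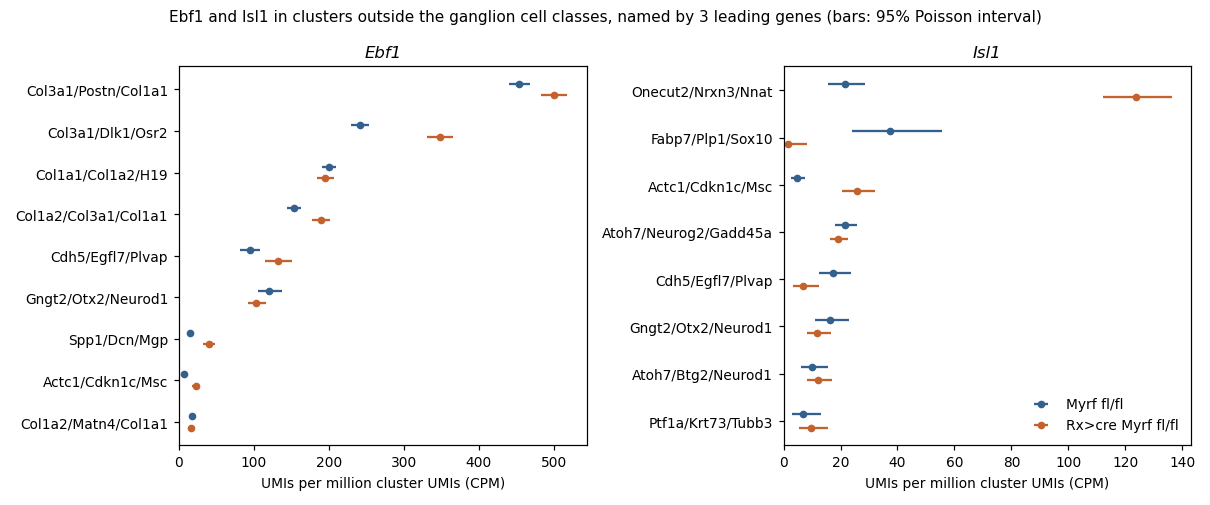
Levels of Ebf1 (left) and Isl1 (right) in clusters outside the ganglion cell classes, each named by its 3 leading genes, in CPM with 1 point per library and 95% Poisson intervals. Ebf1 ranged widely between mesenchymal clusters, and Isl1 had 21.5 and 124 CPM in control and mutant cells of the Onecut2/Nrxn3/Nnat cluster.

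A few values elsewhere rested on single cells. All 21 Pou4f2 UMIs of control Schwann cell precursor-like cells came from 1 of 42 cells and their 24 Isl1 UMIs from 4 cells, against 1 Isl1 UMI in the mutant class, and the 5 richest cells held 88.8% of the 80 Isl1 UMIs of mutant muscle-like cells. Cells called by Scrublet had been left out before the classes were made, and it called fewer doublets than expected in both libraries. Whether these cells were doublets was not tested.

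Patterns over the 17 named classes of both libraries were compared by Pearson correlation of log2(CPM + 10), over 34 points that share libraries and depth. Of 14026 genes, the most like Pou4f2 were Isl1 (0.96), Elavl4 (0.93) and E130006D01Rik (0.90), and the most like Isl1 were Elavl4 (0.97), Pou4f2 (0.96) and Tub (0.95). For Pou4f1 they were Rph3a (0.98), Grm2 (0.98) and Trim67 (0.98). For Pou4f3 they were Cacng5 (0.99), Ppp1r1c (0.99) and Stk32b (0.98). The EBF genes were near each other, with Ebf3 (0.90), Shc2 (0.87) and Nefm (0.86) for Ebf1 and Gm10578 (0.94), Ebf1 (0.90) and Fam163a (0.90) for Ebf3. Among pairs of members the lowest correlation was 0.38, for Pou4f2 and Pou4f3.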

How the data were processed

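The deposited values are raw UMI counts per gene and barcode. The authors used Cell Ranger 7.1.0 with GRCm38 (mm10), per the labels' processing notes, while the deposited matrix headers name software version 3.1.0. The analysis here was restricted to e15.5.

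Barcodes with under 200 genes or over 15% mitochondrial UMIs were left out, as the study did. The study also removed cells above 2000 UMIs as doublets. Since median depth was 9339 and 8702 UMIs, Scrublet (scanpy 1.11.5) was used in its place. It called 3.55% of control and 3.40% of mutant cells, against 9.55% and 10.4% expected, and 231 and 296 cells were in the maturing class when doublets were kept. The smallest barcode had 500 UMIs.

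Log-normalised values of both libraries were clustered jointly, with no batch integration. The fit took 1971 variable features, 30 principal components, 15 neighbours and a Leiden resolution of 1.0 (igraph 0.11.9). The 6 genes, the network lists, and haemoglobin, mitochondrial and sex-linked transcripts were not among the features. Of 36 clusters, 31 were named ("-like") by their best marker score, except that the Gal/Insm2 cluster, which scored best as neurogenic progenitor (1.84), was named for its genes, and that ganglion cell clusters were split into newborn and maturing. The score limit of 0.5, the relative split into newborn and maturing cells and the Gal/Insm2 name were set after seeing the data. The 5 unnamed clusters held, in control and mutant, 4.96% and 2.93% (Col1a1/Col1a2), 3.11% and 2.08% (Col1a2/Col3a1), 4.73% and 4.65% (Lgals1/H19), 0.139% and 0.159% (Malat1/Kcnq1ot1), 2.56% and 2.78% (Tubb3/Stmn2) of cells. The Tubb3/Stmn2 cluster had median depths of 1249 and 1160 UMIs and Isl1 at 325 and 263 CPM. Class names can differ from the study's.

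UMIs were summed per class and library. Levels have exact Poisson, ratios exact conditional binomial and shares exact Clopper-Pearson intervals (scipy 1.17.1), which treat UMIs or cells as independent. Ratios used genes with at least 20 UMIs. Shares and co-detection used cells thinned to 5000 UMIs, and shallower cells were left out. The ratio script was tested on simulated data. The text names the 6 genes, genes of the network lists, and the 3 genes most like each member in pattern, among genes with at least 200 UMIs. The members and lists were chosen with earlier results of these data known. Alternatives changed the mitochondrial, doublet and UMI limits, the Leiden resolution, thinning, centring, free RNA, the sex of cells and the richest cells. A gene of the network lists, a marker gene and the alternative that rests on that marker are not reported here.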

Additional observations from a re-analysis of the deposited data

Results flagged for a closer look

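Isl1, Ebf1 and Ebf3 had mutant over control ratios on opposite sides of 1 in different neural classes, in each case with a counting interval that left out 1. The difference between classes was not tested, since each genotype had 1 library. The log2 ratio of Isl1 was 2.42 in amacrine-like cells, -0.28 in the Gal/Insm2 cluster and -0.054 in newborn ganglion cell-like cells. The 5 richest cells held 56.4% of the Isl1 UMIs of control and 30.7% of those of mutant amacrine-like cells. The log2 ratio of Ebf1 was -0.46 in the Gal/Insm2 cluster, 0.15 in newborn and 0.14 in maturing cells. That of Ebf3 was 0.89 in amacrine-like cells, from 21 control and 56 mutant UMIs, and -0.15 in maturing cells. Where Xist but no Y-linked transcript was seen, the maturing value was 0.043, on the same side as in amacrine-like cells. The 5 richest cells held 71.4% and 48.2% of the Ebf3 UMIs of control and mutant amacrine-like cells.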

How the results depend on the processing

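The log2 values over newborn and maturing cells were, between genotypes, Pou4f1 0.21, Pou4f2 -0.22, Pou4f3 0.14, Isl1 -0.043, Ebf1 0.14, Ebf3 -0.13, and between maturing and newborn cells of both libraries, Pou4f1 1.55, Pou4f2 -2.20, Pou4f3 4.74, Isl1 -1.16, Ebf1 0.27, Ebf3 0.84. Over all alternatives 107 of these values stayed within the main value's counting interval, 35 lay outside it, and 4 whose interval left out 0 changed sign. One value within its interval had the other sign, Pou4f3 between genotypes at -0.054 without cells over 20000 UMIs. At Leiden resolution 0.6, where the low-UMI cluster took the newborn name and maturing cells held both classes, values were between classes Pou4f1 3.44, Pou4f2 0.78, Pou4f3 2.89, Isl1 1.93, Ebf1 2.59 and Ebf3 2.18. Where Xist but no Y-linked transcript was seen they were between genotypes Pou4f2 -0.072, Isl1 0.025, Ebf1 0.24 and Ebf3 0.023, and separately Ebf3 0.043 in the maturing class, and between classes Ebf1 0.21. Under the study's limit of 2000 UMIs, which left 1 newborn and 2 maturing cells in both libraries and 3 control and 4 mutant cells of the Gal/Insm2 cluster, too few to read a direction from, they were between genotypes Isl1 -0.11, and separately Isl1 0.71 in the Gal/Insm2 cluster, and between classes Isl1 -2.92. Without cells over 20000 UMIs they were between genotypes Pou4f1 0.41 and Ebf3 -0.028, and between classes Pou4f1 1.83 and Ebf1 0.32. A mitochondrial limit of 5% gave between genotypes Pou4f1 0.082, and between classes Pou4f1 0.88, Pou4f2 -2.05, Pou4f3 3.09, Isl1 -1.33, Ebf1 0.17 and Ebf3 0.68. Keeping doublets gave between classes Pou4f1 1.24, Pou4f2 -1.95, Ebf1 0.058 and Ebf3 0.61. Centring on the median of all genes gave between classes Isl1 -1.23 and Ebf1 0.20. Thinning to 5000 UMIs gave between genotypes Pou4f1 0.36, and between classes Ebf1 0.34. Without the 5 richest cells values were between classes Pou4f3 7.31 and Isl1 -1.22. Adding the low-UMI cluster to newborn cells, a choice made after seeing the data, gave between classes Pou4f1 1.72, Pou4f2 -2.07, Isl1 -0.997, Ebf1 0.44 and Ebf3 0.98. At Leiden resolution 1.5 and with less free RNA the values over both classes and between classes stayed within their intervals, but in the Gal/Insm2 cluster the genotype values at resolution 1.5 were Pou4f2 -0.39 rather than -0.12 and Isl1 -0.51 rather than -0.28. Elsewhere the causes were not tested. No paired analysis was possible because each genotype had 1 library. Depth limited Pou4f3, which had 8 UMIs in newborn cells of each library.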
